A study of Mus musculus with 25 samples.

Results

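A set of 10 matrix-remodelling genes was followed through 17 RNA-seq libraries of mouse basal cell carcinoma (BCC), a skin tumour driven by hedgehog signalling. They were 8 matrix metalloproteinases (Mmp2, Mmp3, Mmp9, Mmp10, Mmp11, Mmp12, Mmp13 and Mmp14) and 2 of their tissue inhibitors (Timp1 and Timp3). They were chosen by name with earlier results of these libraries known, and all 10 were found by symbol among the 24015 genes of the tumour table and of the cell table. Each table holds 27 Mmp and Timp symbols, so the 10 genes left 17 other family members. Because both tables had a part in choosing the 10 genes, their values are given as a description, with fold changes and standard errors (SE) but no p-values.

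The tumour libraries came from 4 drug-resistant and 4 drug-sensitive BCCs of C57BL6 mice. All of these mice were Ptch+/-, K14 Cre-ER, p53 fl/fl, so 1 working copy of the hedgehog receptor gene Ptch was missing throughout and p53 could be deleted only in cells that use the keratin 14 promoter. The mice of both groups received a Smo inhibitor by mouth, so neither group is an untreated control. The cell libraries came from ASZ001, a single mouse BCC line labelled as resistant. ASZ001 cells were given CCG-1423, an inhibitor of MRTF and SRF driven transcription, vismodegib, an inhibitor of the hedgehog transducer Smo, or vehicle, with 3 libraries each. No source used here gives ages, doses or exposure times. The series is about how MRTF and SRF, which link the actin cytoskeleton to transcription, act in drug-resistant BCC. Its 8 exome samples were not analysed here.

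Matrix metalloproteinases are zinc enzymes that cut the proteins around cells. Most are secreted as inactive proenzymes, which other proteases activate by removing the propeptide. The TIMPs bind the active site and block it, so net activity depends on enzyme, activator and inhibitor together. In skin these enzymes are known for their part in wound healing, when migrating keratinocytes, fibroblasts and infiltrating leukocytes make them, and in tumour stroma. Several of their genes lie side by side on mouse chromosome 9, and their promoters have long been studied as targets of the AP-1 transcription factors.

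Values are normalized read counts, which are reads at a gene divided by 1 size factor per library. They can be compared between samples for a gene, but not between genes, since they are not corrected for length. The tumour libraries held 17537094 to 20014426 reads at genes in resistant tumours and 8111252 to 14161398 in sensitive tumours. The cell libraries held 30455530 to 44017757. A count of 3 reads corresponded to 2.09 to 4.97 normalized counts in tumours and to 2.45 to 3.40 in cells. Sensitive tumour 4 stood apart from the other sensitive tumours. It lay inside the range of the 4 resistant tumours for 9467 of 15076 tested genes (62.8%) and for 7 of the 10 listed genes (70%). Reads of Y-linked genes numbered 0 in every resistant tumour and in sensitive tumour 4, against 2174, 1391 and 1514 in sensitive tumours 1 to 3. Tumour results are therefore given with and without sensitive tumour 4, and without it, drug response and sex cannot be told apart. Epidermal markers fitted the labels: Krt5, Krt14 and Krt17 led the keratinocyte list in ASZ001 cells, while Hhip, a hedgehog target on that list, was at 0 under CCG-1423 and vehicle.

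The promoter sequences of the 4 listed genes on chromosome 9 are shown because these 4 genes, and no other listed gene, were called under vismodegib. RefSeq promoter windows, which run from 250 bases before to 50 bases after an annotated start in build GRCm38.p6, were matched for 8 of the 10 genes and searched for 4 short motifs. Each sequence below reads 5′ to 3′ on the + strand, and capitals mark an AP-1 motif (TGANTCA) or a TATA motif (TATAAA). The windows are chr9:7272264-7272563 for Mmp13, chr9:7347124-7347423 for the second annotated start of Mmp12, chr9:7445572-7445871 for Mmp3 and chr9:7502092-7502391 for Mmp10.
Mmp13: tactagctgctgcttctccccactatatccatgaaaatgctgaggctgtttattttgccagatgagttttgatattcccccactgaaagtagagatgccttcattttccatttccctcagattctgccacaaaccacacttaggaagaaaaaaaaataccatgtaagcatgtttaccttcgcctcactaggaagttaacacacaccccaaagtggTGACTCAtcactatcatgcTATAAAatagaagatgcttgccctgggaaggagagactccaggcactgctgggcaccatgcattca
Mmp12: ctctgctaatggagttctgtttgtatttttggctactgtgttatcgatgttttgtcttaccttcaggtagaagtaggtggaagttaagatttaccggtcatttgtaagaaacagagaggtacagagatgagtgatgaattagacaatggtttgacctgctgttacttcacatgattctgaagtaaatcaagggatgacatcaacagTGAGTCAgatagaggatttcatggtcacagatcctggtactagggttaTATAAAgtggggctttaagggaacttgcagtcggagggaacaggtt
Mmp3: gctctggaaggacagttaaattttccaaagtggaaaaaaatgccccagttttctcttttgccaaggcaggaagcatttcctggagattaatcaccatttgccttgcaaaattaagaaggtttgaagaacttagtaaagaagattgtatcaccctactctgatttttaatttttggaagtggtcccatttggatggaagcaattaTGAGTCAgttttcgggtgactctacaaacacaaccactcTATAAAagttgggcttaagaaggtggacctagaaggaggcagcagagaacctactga
Mmp10: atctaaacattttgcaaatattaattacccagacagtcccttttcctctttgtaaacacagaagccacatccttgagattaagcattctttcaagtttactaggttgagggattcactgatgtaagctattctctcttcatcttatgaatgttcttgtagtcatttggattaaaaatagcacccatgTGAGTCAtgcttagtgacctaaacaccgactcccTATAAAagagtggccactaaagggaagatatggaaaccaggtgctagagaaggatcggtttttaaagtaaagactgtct

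Each of the 4 windows held 1 AP-1 motif, and the motif lay at similar distances from the annotated start. It ran from base -35 to -29 in Mmp13, from -44 to -38 in Mmp12, from -46 to -40 in Mmp3 and from -63 to -57 in Mmp10. A TATA motif followed it in each window, at -16 to -11 in Mmp13, 5 to 10 in Mmp12, -7 to -2 in Mmp3 and -29 to -24 in Mmp10. The AP-1 motif reads the same on both strands, and each TATA match was on the strand of the gene. Among 32851 promoter windows of this length, 7.81% held the AP-1 motif, 13.6% held the TATA motif and 1.54% held both. The windows of Mmp11, Mmp14, Timp1 and Timp3, and the first annotated start of Mmp12, held neither. The ETS-family motif AGGAAG, present in 35.4% of all windows, was found in Mmp3, Mmp13, Mmp14, Timp1, Timp3 and the first start of Mmp12. No listed window held the CArG box bound by SRF, which 1.63% of all windows held. A match describes letters only, and no match says nothing about binding elsewhere.

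**Figure D1:**
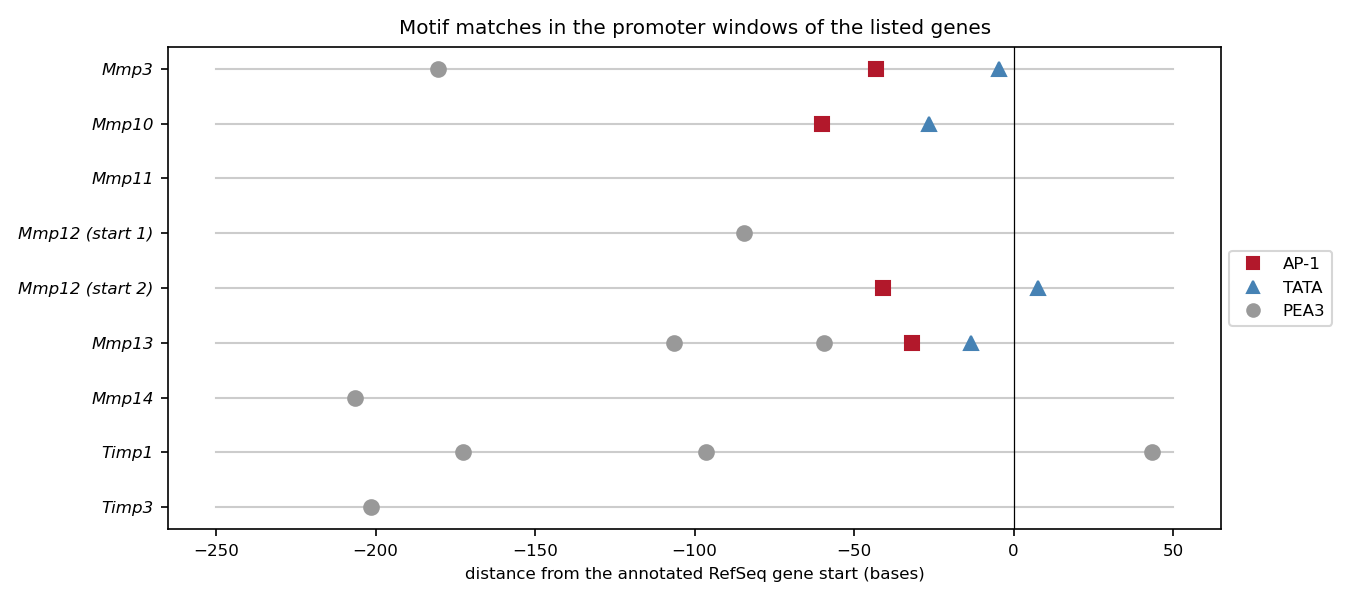
Positions of the AP-1, TATA and PEA3 (AGGAAG) motifs in the RefSeq promoter windows of the listed genes, in bases from the annotated start, with 1 line per window. The 4 windows with an AP-1 motif are those of Mmp13, Mmp12 (second start), Mmp3 and Mmp10, and each of them also holds a TATA motif.

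In tumours, the collagenase Mmp13, the stromelysins Mmp3 and Mmp10, the gelatinase Mmp9 and the inhibitor Timp1 had more reads in the resistant tumours than in sensitive tumours 1 to 3, and the stromelysin Mmp11 had fewer. Mmp2, Mmp12, Mmp14 and Timp3 overlapped between the groups. With all 8 tumours, none of the 10 genes was called by limma at an adjusted p under 0.05, where 0.113% of all tested genes were called (0.0332% higher and 0.0796% lower). Of the 10, 6 had an unadjusted p under 0.05, where 25.1% of all genes did. EdgeR called 0, and DESeq2 called 2 (Mmp9, higher, and Mmp11, lower), where it called 10.8% of all genes. Without sensitive tumour 4, 6 of the 10 were called, 5 higher and 1 lower, where 40% of all tested genes were called (20.6% higher and 19.4% lower), and leaving out any other tumour gave 0. The groups did not overlap for 1 of the 10 genes with all 8 tumours, against 7.9% of all genes. Without sensitive tumour 4 this held for 6, 5 higher and 1 lower, against 47.6% of all genes (24.3% higher and 23.3% lower). The median log2 fold change of the 10 genes was 1.19 with all 8 tumours, against 0.03 for all genes, and 1.47 without sensitive tumour 4, against 0.02.

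Mmp13, the main interstitial collagenase of the mouse, cuts fibrillar collagens. It had 38439, 22154, 17790.0 and 18610.0 normalized counts in resistant tumours, against 594, 627, 431 and 12603 in sensitive tumours. It was the only listed gene whose groups did not overlap with all 8 tumours, a pattern seen in the same direction for 3.9% of all genes. Resistant tumours averaged 24248 ± 9648 (SD, n = 4) and sensitive tumours 1 to 3 averaged 551 ± 105 (SD, n = 3), a ratio of 44.0. The log2 fold change was 4.27 ± 0.96 (SE) with all tumours and 5.40 ± 0.28 without sensitive tumour 4.

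Mmp3 (stromelysin-1) cuts proteoglycans, laminin and fibronectin and activates other proenzymes. It had 24646, 8386, 10215 and 5374 normalized counts in resistant tumours, against 105, 161, 288 and 6888 in sensitive tumours. Sensitive tumour 4 therefore lay above resistant tumour 4, while the other 3 sensitive tumours lay far below every resistant one. Resistant tumours averaged 12155 ± 8563 (SD, n = 4) and sensitive tumours 1 to 3 averaged 185 ± 93.9 (SD, n = 3), a ratio of 65.8. The log2 fold change was 4.59 ± 1.18 (SE) with all tumours and 5.92 ± 0.51 without sensitive tumour 4.

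Mmp10 (stromelysin-2), a close relative of Mmp3, is known from keratinocytes at the edge of wounds. It had 2429, 316, 570.0 and 1178 normalized counts in resistant tumours, against 35.7, 18.4, 9.94 and 1580.2 in sensitive tumours. The value of sensitive tumour 4 was above 3 of the 4 resistant tumours. Without that tumour the groups did not overlap, and the log2 fold change was 5.42 ± 0.68 (SE), against 3.84 ± 1.43 with it.

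Mmp11 (stromelysin-3) is activated inside the cell by furin-like proteases and is known as a product of fibroblasts close to carcinoma cells. It ran opposite to the other stromelysins. Its normalized counts were 161, 107, 179.9 and 565 in resistant tumours, against 3022, 4001, 7068 and 179 in sensitive tumours. Resistant tumour 4 was the highest of its group, and sensitive tumour 4 fell among the other 3 resistant tumours. The mean was 253 ± 210.3 in resistant tumours (SD, n = 4) and 4697 ± 2111 in sensitive tumours 1 to 3 (SD, n = 3), which was 18.6 times as high. The log2 fold change was -3.27 ± 1.06 (SE) with all tumours and -4.42 ± 0.53 without sensitive tumour 4. Summed counts of the fibroblast markers, 10 genes led by the collagens Col1a1, Col1a2 and Col3a1, ran from 82313 to 124220 in resistant tumours, against 68932 to 140663 in sensitive tumours 1 to 3, with 100383 in sensitive tumour 4. These sums overlapped, while Mmp11 did not overlap between resistant tumours and sensitive tumours 1 to 3. Members of the list differed in direction. Dcn and Pdgfra had medians of 5349 and 1979 in resistant tumours, against 13610 and 4375 in all sensitive tumours. Pdgfrb and Fap ran the other way, with medians of 3112 and 266, against 1764 and 62.2. The part of fibroblasts in the Mmp11 values was not tested.

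The gelatinases cut denatured collagen and the type IV collagen of basement membranes. Mmp9 (gelatinase B), known from neutrophils, macrophages and keratinocytes, had 2166, 5766, 621 and 1174 normalized counts in resistant tumours, against 216, 169.5, 111 and 1332 in sensitive tumours. Sensitive tumour 4 exceeded resistant tumours 3 and 4, and the other sensitive tumours lay below all resistant ones. The log2 fold change was 2.67 ± 0.86 (SE) with all tumours and 3.44 ± 0.65 without sensitive tumour 4. Mmp2 (gelatinase A), typical of stromal fibroblasts, had 3823, 10603, 4436 and 6349 normalized counts in resistant tumours, against 4844, 5163, 7056 and 3762 in sensitive tumours. The Mmp2 ranges overlapped with sensitive tumour 4 in or out, and the log2 fold changes were 0.20 ± 0.33 and 0.05 ± 0.33.

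Markers of neutrophils, taken as a sum, were higher in resistant tumours and sensitive tumour 4 than in sensitive tumours 1 to 3, as was Mmp9. Their summed normalized counts, over the 9 of 10 markers in the table, were 6319 to 9126 in resistant tumours, against 657 to 1120 in sensitive tumours 1 to 3, with 16774 in sensitive tumour 4. Among resistant tumours the sum and Mmp9 did not rank alike, as tumour 2 held the most Mmp9 (5766) and the lowest sum (6319). S100a9, S100a8, Csf3r and Cxcr2 made up most of the sum. Mpo and Elane of the same list ran the other way at low counts. Their medians were 1.63 and 0.37 in resistant tumours, against 7.28 and 0.83 in all sensitive tumours. The part of the neutrophil markers in the Mmp9 values was not tested. In bulk tissue, fewer cells of a type and less RNA per cell cannot be told apart. The summed keratinocyte markers ran the other way, with 38278 to 93748 in resistant tumours, against 153383 to 214103 in sensitive tumours 1 to 3, with 97202 in sensitive tumour 4. Krt5, Krt14, Krt15 and Trp63 had lower medians in resistant tumours than in all sensitive tumours, with Trp63 at 7970 against 16868. The other members of the 8-gene list did not follow the sum. The hedgehog targets Gli1, Ptch1 and Hhip had medians of 2262, 2869 and 1345 normalized counts in resistant tumours, against 597, 402 and 217 in all sensitive tumours. Krt17 had a median of 16566, against 13384. The part of these markers in the lower Mmp11 and higher Mmp13, Mmp3 and Mmp10 values was not tested.

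Mmp12, the macrophage metalloelastase, did not separate the groups. It had 839, 269, 197 and 322 normalized counts in resistant tumours, against 663, 273, 108 and 659 in sensitive tumours. Both groups spanned nearly the same range, and the log2 fold change was 0.04 ± 0.64 (SE) with all tumours and 0.36 ± 0.64 without sensitive tumour 4. The macrophage markers summed to 9226 to 89036 in resistant tumours, against 13510 to 25324 in sensitive tumours 1 to 3, with 19268 in sensitive tumour 4, and also overlapped. Lyz2 led this sum and reached 67712 in a resistant tumour. Members of the list differed in direction. Cd14 and Cd163 had medians of 1515 and 144 in resistant tumours, against 229 and 42.7 in all sensitive tumours. Adgre1 and Mrc1 ran the other way, with medians of 761 and 463, against 1791 and 1505. The difference of Mmp12 changed sign in 6 of the alternative settings, so it has no direction here.

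Mmp14 (MT1-MMP) sits in the cell membrane, cuts collagen there and activates the Mmp2 proenzyme. Its normalized counts were 3539, 6116, 3398 and 4852 in resistant tumours, against 2174, 2901, 4008 and 3164 in sensitive tumours. Only sensitive tumour 3 reached into the resistant range. The log2 fold change of 0.54 ± 0.25 (SE) was hardly moved without sensitive tumour 4 (0.57 ± 0.27), and Mmp14 was not called either way.

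Of the inhibitors, Timp1 is secreted and inducible, while Timp3 is bound to the matrix and also blocks ADAM and ADAMTS proteases. Timp1 had 2123, 2616, 758 and 498 normalized counts in resistant tumours, against 219, 261, 219 and 1015 in sensitive tumours. Sensitive tumour 4 again lay inside the resistant range and the other 3 below it. Without it, resistant tumours averaged 6.44 times the sensitive ones and the log2 fold change was 2.37 ± 0.54 (SE), against 1.84 ± 0.65 with it. Timp3 had 11919, 7958, 15758 and 9561 normalized counts in resistant tumours, against 14011, 9555, 12488 and 11932 in sensitive tumours. The Timp3 ranges overlapped and its log2 fold change was -0.12 ± 0.24 with all tumours. Timp1 lies within the span of Syn1 and Timp3 within that of Syn3, and no source used here says whether counting used strand, so reads where they overlap cannot be told apart. Syn1 reached at most 186 normalized counts in any tumour and Syn3 at most 855.

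**Figure D2:**
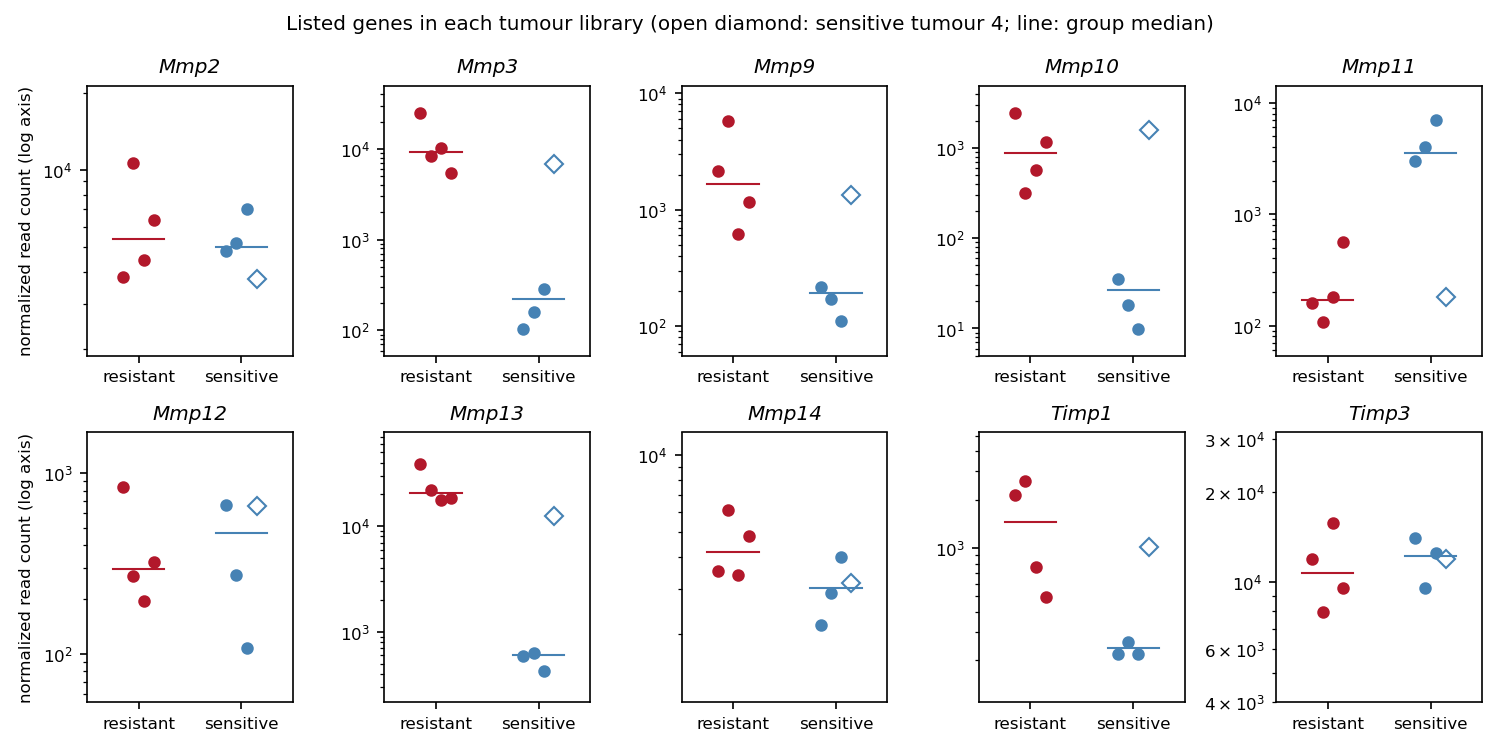
Normalized counts (log axis) of the 10 listed genes in each tumour, with resistant tumours left of sensitive tumours, a line at each median and sensitive tumour 4 as an open diamond. For Mmp3, Mmp9, Mmp10, Mmp11, Mmp13 and Timp1 the other 3 sensitive tumours stand clear of the resistant ones, while sensitive tumour 4 lies within the resistant range or, for Mmp13, just under it at 12603.

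The other family members are those left by a choice made with earlier results known, so their p-values are not free of that choice. Naming called members without sensitive tumour 4 was also chosen after seeing the data. With all 8 tumours, none of 13 tested was called by limma or edgeR, 4 had an unadjusted p under 0.05 and DESeq2 called 1, beside 25.1% and 10.8% of all genes. Without sensitive tumour 4, 9 of 14 passed the limma test, 4 higher and 5 lower, beside 40% of all genes (20.6% higher and 19.4% lower). In that fit Mmp1b passed the filter on low counts only through resistant tumours, and Timp4 only through sensitive tumours 1 to 3. The filter thus favoured the calls of both genes. The neutrophil collagenase Mmp8 had 553, 603, 314 and 652 normalized counts in resistant tumours, against 69.1, 12.7, 44.7 and 1000.4 in sensitive tumours. Sensitive tumour 4 held the highest Mmp8 count of all, and also the highest sum of the neutrophil markers, though not the highest count of every marker. Mmp8 was higher in resistant tumours by a log2 fold change of 3.86 ± 0.52 (limma adjusted p = 0.000957) without that tumour. Mmp25, a membrane-anchored enzyme known from leukocytes, rose by 1.59 ± 0.40 (limma adjusted p = 0.0135). Mmp1b, a rodent relative of interstitial collagenase, had 145, 67.4, 59.5 and 12.6 normalized counts in resistant tumours, against 0, 4.24, 0 and 42.6 in sensitive tumours. Mmp1b was called higher without sensitive tumour 4 (limma adjusted p = 0.00319), and no fold is given because sensitive tumours 1 to 3 held at most 3 reads.

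Among the members that fell, the membrane-type enzyme Mmp16 had a log2 fold change of -3.45 ± 0.53 (limma adjusted p = 0.00172) without sensitive tumour 4. Timp4 had 1.75, 1.48, 1.59 and 1.40 normalized counts in resistant tumours, against 137, 84.8, 13.2 and 0 in sensitive tumours. Timp4 was called lower (limma adjusted p = 0.00216), and no fold is given because the resistant values lie under the level of 3 reads. Timp2, which helps Mmp14 activate pro-Mmp2, had 2314, 4049.9, 3268 and 3189.8 normalized counts in resistant tumours, against 5494, 6477, 6781 and 1819 in sensitive tumours. Its log2 fold change was -0.99 ± 0.19 (limma adjusted p = 0.00496) without sensitive tumour 4, which held less than any other tumour. The other called genes were Mmp19, higher, and Mmp23 and Mmp28, lower. Mmp19 had 973, 1339, 1107 and 768 normalized counts in resistant tumours, against 786, 497, 348 and 829 in sensitive tumours. Resistant tumour 4 lay within the sensitive range. The uncalled Mmp15, Mmp17 and Mmp24 stayed at 43.7 to 155 normalized counts in resistant tumours, against 48.0 to 179 in sensitive tumours.

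In ASZ001 cells given CCG-1423, Mmp3, Mmp10, Mmp11, Mmp12, Mmp14 and Timp1 were lower than under vehicle, and Mmp13 and Timp3 were higher. Of the 9 listed genes that passed the filter on low counts, 8 were called by limma, and edgeR and DESeq2 called 8 as well. CCG-1423 moved most genes of the table, with 85.3% of all tested genes called (42.8% higher and 42.6% lower), so the share of listed genes called was near that of all genes. The same 8 of the 9 genes did not overlap between the groups, against 85.8% of all genes. The median log2 fold change of the 9 genes was -1.29, against 0.00 for all genes.

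The stromelysins were lower together under CCG-1423. Mmp3 had 134, 116 and 127 normalized counts under CCG-1423, against 377, 375 and 368 under vehicle. The groups were far apart relative to their spread, and the log2 fold change was -1.57 ± 0.07 (SE). Mmp10 had 99.5, 120.3 and 140.0 normalized counts under CCG-1423, against 261, 318 and 299 under vehicle, a log2 fold change of -1.29 ± 0.11. Mmp11 had 117, 141 and 139 under CCG-1423, against 553, 526 and 522 under vehicle, a log2 fold change of -2.01 ± 0.08. For all 3 genes every CCG-1423 library lay below every vehicle library.

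The metalloelastase Mmp12 had 45.8, 69.2 and 81.6 normalized counts under CCG-1423, against 292, 289 and 255 under vehicle. Its log2 fold change of -2.11 ± 0.16 (SE) was the lowest among the listed genes in this comparison. Mmp12 is named for macrophages, and Lyz2, C1qa, C1qb, C1qc and Cd163 of the macrophage list were at 0 in the vehicle cells. Cd68 and Cd14 made up most of the macrophage sum, which was 961 to 1115 under CCG-1423, against 554 to 594 under vehicle. That sum was higher under CCG-1423, where Mmp12 was lower. Csf1r of the same list was lower, like Mmp12, with a median of 2.78 under CCG-1423, against 19.2 under vehicle. The part of these markers in the Mmp12 values was not tested. Mmp14 had 2914, 2737 and 2887 normalized counts under CCG-1423, against 5901, 6033 and 5928 under vehicle. The spread of Mmp14 was small in both groups, and the log2 fold change was -1.07 ± 0.03.

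Mmp13 went against its neighbours on the chromosome. It had 582, 501 and 566 normalized counts under CCG-1423, against 186, 197 and 213 under vehicle, a log2 fold change of 1.46 ± 0.09 (SE). The inhibitors parted as well. Timp1 had 21.2, 15.6 and 20.4 normalized counts under CCG-1423, against 72.7, 64.9 and 73.6 under vehicle, a log2 fold change of -1.84 ± 0.18. Timp3 had 67449.9, 76154 and 74870.0 under CCG-1423, against 27377, 27707 and 26768 under vehicle, a log2 fold change of 1.41 ± 0.04. Syn1 and Syn3, whose spans hold these inhibitor genes, had at most 6.53 and 35.1 normalized counts in these 6 libraries.

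Of the gelatinases, Mmp9 was near the limit of detection in ASZ001 cells, while Mmp2 was measured in every library. Mmp2 had 52.5, 55.4 and 33.4 normalized counts under CCG-1423, against 42.5, 41.5 and 43.0 under vehicle. CCG-1423 library 3 lay below all vehicle libraries and libraries 1 and 2 above them, and the log2 fold change was 0.12 ± 0.19 (SE). Mmp9 had 8, 10 and 11 reads under CCG-1423, against 0, 1 and 0 under vehicle. Fewer than 3 libraries reached 10 normalized counts, so it did not pass the filter and no fold is given. With no filter on low values Mmp9 was called higher under CCG-1423. S100a9, Retnlg, Elane and Ngp of the neutrophil list were at 0 in vehicle cells, and the neutrophil sum was 117 to 170 under CCG-1423, against 51.1 to 78.4 under vehicle, mostly from Cxcr2.

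The 6 other Mmp and Timp genes that passed the filter were all called under CCG-1423, beside 85.3% of all genes. Mmp17 and Mmp1b passed the filter only through the CCG-1423 libraries, where they were high. Mmp19 passed it only through the vehicle and vismodegib libraries, where it was higher. The filter favoured the calls of these genes, so the count of 6 supports nothing. Timp2, Mmp15 and Mmp19 fell. Timp2 had 14588, 13447 and 13584 normalized counts under CCG-1423, against 29019, 28822 and 28932 under vehicle, a log2 fold change of -1.06 ± 0.03 (limma adjusted p = 6.6e-14). The membrane-type enzyme Mmp15 had 1511, 1230.4 and 1360.2 under CCG-1423, against 3498, 3398 and 3499 under vehicle, a log2 fold change of -1.35 ± 0.06 (limma adjusted p = 2.57e-12). Mmp19 fell by 1.44 on the log2 scale (limma adjusted p = 0.000545), from counts no higher than 17.0 under vehicle. It had 3.71 to 4.47 under CCG-1423, near the level of 3 reads.

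Mmp28, Mmp17 and Mmp1b rose. The keratinocyte enzyme Mmp28 (epilysin) had 400.1, 334 and 336 normalized counts under CCG-1423, against 231, 245 and 224 under vehicle, a log2 fold change of 0.61 ± 0.09 (limma adjusted p = 9.94e-06). Mmp17 rose by 2.28 ± 0.41 (limma adjusted p = 9.87e-05) at 17.3 to 29.1 normalized counts under CCG-1423, against 1.63 to 6.39 under vehicle. The vehicle values lie near the level of 3 reads, so the size of this fold is uncertain. Mmp1b had 19.0, 18.2 and 19.5 normalized counts under CCG-1423, against 2 reads in all 3 vehicle libraries together, and was called (limma adjusted p = 3.48e-06). Mmp1b has a related gene nearby, Mmp1a, at 0 under CCG-1423. Their sequences were not compared, and no source used here says how reads matching more than 1 gene were assigned.

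**Figure D3:**
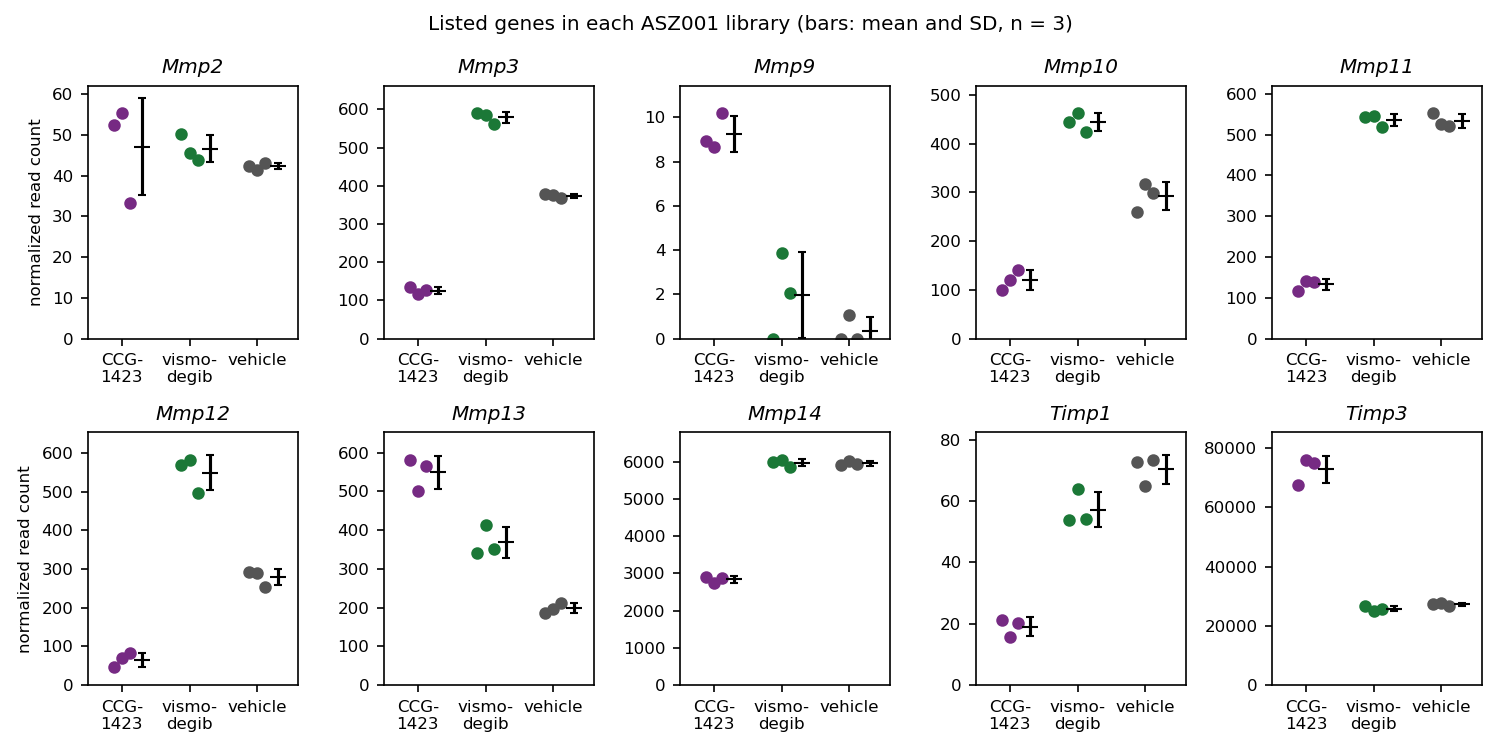
Normalized counts (linear axis from 0, its height differing by gene) of the 10 listed genes in ASZ001 libraries given CCG-1423, vismodegib or vehicle, with 1 point per library and bars for the mean and SD. Mmp13 and Timp3 are above vehicle under CCG-1423 and 6 genes are below it, while under vismodegib Mmp3, Mmp10, Mmp12 and Mmp13 are above vehicle.

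Under vismodegib, Mmp3, Mmp10, Mmp12 and Mmp13, the 4 listed genes on chromosome 9, were higher than under vehicle, and the other listed genes were close to it. Limma called these 4 of the 9 tested genes, all higher, where 5.5% of all genes were called (1.58% higher and 3.92% lower). EdgeR and DESeq2 each called 4 as well. The groups did not overlap for 5 higher genes, these and Mmp2, and for Timp1 and Timp3 below vehicle, against 29.9% of all genes (16% higher and 14% lower). The median log2 fold change of the 9 genes was 0.13, against 0.01 for all genes.

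Mmp12 had 568, 583 and 497 normalized counts under vismodegib, against 292, 289 and 255 under vehicle, a log2 fold change of 0.98 ± 0.16 (SE). Mmp13 had 340.0, 413 and 352 under vismodegib, against 186, 197 and 213 under vehicle, a log2 fold change of 0.88 ± 0.09. Neither the elastase nor the collagenase overlapped between the groups. Mmp3 had 590.5, 585 and 562 normalized counts under vismodegib, against 377, 375 and 368 under vehicle, a log2 fold change of 0.63 ± 0.07. Mmp10 had 445, 463 and 425 under vismodegib, against 261, 318 and 299 under vehicle, a log2 fold change of 0.61 ± 0.11. The stromelysins differed from vehicle by about the same log2 amount as each other, and less than the elastase and the collagenase.

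Mmp11 and Mmp14 were level with vehicle. Mmp11 had 542, 546 and 519 normalized counts under vismodegib, against 553, 526 and 522 under vehicle, and Mmp14 had 5989, 6059.7 and 5868, against 5901, 6033 and 5928. Their log2 fold changes were 0.01 ± 0.08 and 0.00 ± 0.03 (SE), and both overlapped. The inhibitors lay slightly below vehicle without being called. Timp1 had 53.7, 63.8 and 54.2 normalized counts under vismodegib, against 72.7, 64.9 and 73.6 under vehicle, and Timp3 had 26578, 24923 and 25585, against 27377, 27707 and 26768. Neither inhibitor overlapped with vehicle, and the log2 fold changes were -0.30 ± 0.18 for Timp1 and -0.09 ± 0.04 for Timp3. Mmp2 had 50.3, 45.4 and 43.9 normalized counts under vismodegib, against 42.5, 41.5 and 43.0 under vehicle, with a log2 fold change of 0.13 ± 0.19. Mmp9 had 0, 4 and 2 reads.

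None of the 6 other Mmp and Timp genes tested was called under vismodegib by limma, edgeR or DESeq2. An unadjusted p under 0.05 was reached by 0 of them with limma and by 1 with edgeR and with DESeq2, where limma gave 18.5% of all genes such a p. Timp2 had 29234, 29793 and 29567 normalized counts under vismodegib, against 29019, 28822 and 28932 under vehicle (log2 fold change 0.03 ± 0.03). Mmp15 had 3582, 3851 and 3814, against 3498, 3398 and 3499 (0.11 ± 0.06), and Mmp28 had 262, 256 and 231, against 231, 245 and 224 (0.10 ± 0.09). Timp2 and Mmp15 lay above vehicle in every vismodegib library, a pattern seen for 16% of all genes, and Mmp28 overlapped.

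Set directly against vismodegib, CCG-1423 gave lower counts of Mmp3, Mmp10, Mmp11, Mmp12, Mmp14 and Timp1 and higher counts of Mmp13 and Timp3. Limma called 8 of the 9 tested listed genes, where 84.8% of all genes were called (42.4% higher and 42.4% lower). The same 8 of the 9 genes did not overlap between the groups, against 85.1% of all genes. The compounds act on different targets, and no source used here says whether their doses and times match. Among the listed genes Mmp12 differed most, with a log2 fold change of -3.08 ± 0.16 (SE) between CCG-1423 and vismodegib, followed by -2.20 ± 0.07 for Mmp3, -2.01 ± 0.08 for Mmp11 and -1.89 ± 0.11 for Mmp10. Mmp14 and Timp1 had log2 fold changes of -1.07 ± 0.03 and -1.54 ± 0.18. Timp3 was higher under CCG-1423 by 1.5 ± 0.04. Mmp13, above vehicle under both compounds, was also higher under CCG-1423 than under vismodegib, by 0.58 ± 0.09. The mean of Mmp13 was 549.6 ± 42.9 normalized counts under CCG-1423, 368 ± 39.2 under vismodegib and 199 ± 13.4 under vehicle (SD, n = 3 each). Mmp2 was not called, at -0.02 ± 0.19. The 6 tested other family members were all called, with the same 3 higher and 3 lower as against vehicle, and both comparisons share the CCG-1423 libraries. Of these, Mmp17, Mmp1b and Mmp19 passed the filter only through libraries of the groups where they were higher, which favoured their calls.

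**Figure D4:**
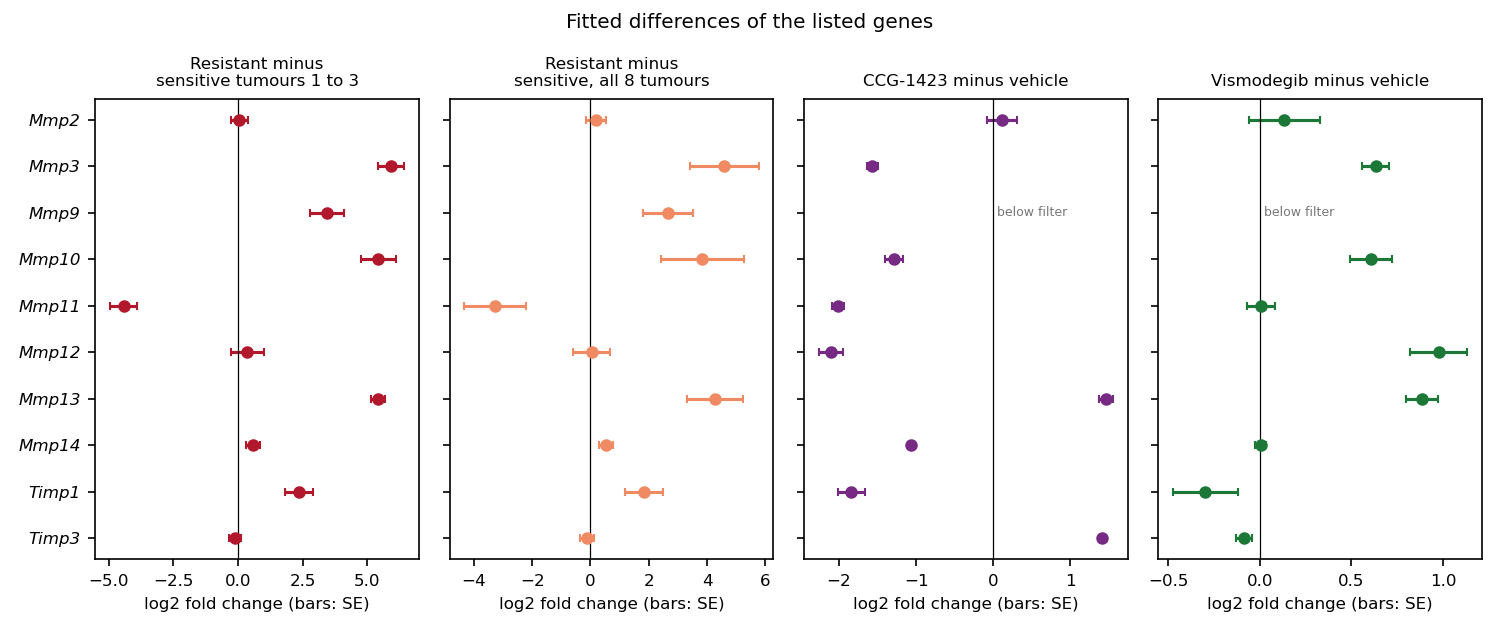
Log2 fold changes (points) with 1 SE (bars) of the listed genes for resistant over sensitive tumours with and without sensitive tumour 4, CCG-1423 over vehicle and vismodegib over vehicle, each panel with its own scale. Mmp13 is above 0 in each comparison, from 0.88 under vismodegib to 5.40 in tumours without sensitive tumour 4, and Mmp3 and Mmp10 are above 0 except under CCG-1423.

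Read by gene, the tumour and cell comparisons did not line up for most members. Mmp13 was higher in resistant tumours than in sensitive tumours 1 to 3, under CCG-1423 and under vismodegib. Mmp3 and Mmp10 were higher in the same tumour comparison and under vismodegib, but lower under CCG-1423. Timp1 was higher in resistant tumours than in sensitive tumours 1 to 3 and lower under CCG-1423, and Mmp11 was lower in both. Timp3, Mmp12 and Mmp14 were called in cells under CCG-1423 but not in tumours, and Mmp2 in no comparison. Mmp12 was also called under vismodegib, where it was higher (log2 fold change 0.98), while under CCG-1423 it was lower.

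RefSeq places 10 Mmp genes side by side on chromosome 9, in the order Mmp13, Mmp12, Mmp1b, Mmp3, Mmp1a, Mmp10, Mmp8, Mmp27, Mmp20 and Mmp7. In tumours without sensitive tumour 4, the log2 fold changes along this row were 5.40 for Mmp13, 0.36 for Mmp12, 5.92 for Mmp3, 5.42 for Mmp10, 3.86 for Mmp8 and -0.61 for Mmp27, and Mmp1b was called higher. Mmp12 thus stood between strongly higher neighbours without being called itself. Mmp20 and Mmp7 had at most 4.97 normalized counts in any tumour. Of the 3 genes on each side, Birc3, which encodes an inhibitor of apoptosis, was called higher with 1.19 (limma adjusted p = 0.0104) and Ddi1 with 1.88 (limma adjusted p = 0.0215), while Dync2h1, Dcun1d5, Tmem123 and Birc2 were not called.

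The same row was mixed under CCG-1423, with log2 fold changes of 1.46 for Mmp13, -2.11 for Mmp12, -1.57 for Mmp3 and -1.29 for Mmp10, and with Mmp1b called higher. Adjacent genes thus lay on opposite sides of vehicle, and the flanking genes ranged from -0.42 for Dync2h1 to 2.27 for Birc3. Under vismodegib the values were 0.88 for Mmp13, 0.98 for Mmp12, 0.63 for Mmp3 and 0.61 for Mmp10, and Mmp1b was not called. None of the 5 tested flanking genes was called under vismodegib, and their log2 fold changes ran from -0.06 to 0.16. The promoters printed above were chosen because Mmp13, Mmp12, Mmp3 and Mmp10 were called under vismodegib, so their being printed adds nothing to the calls. Motifs in the promoters of the other Mmp genes of this row are not reported here.

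**Figure D5:**
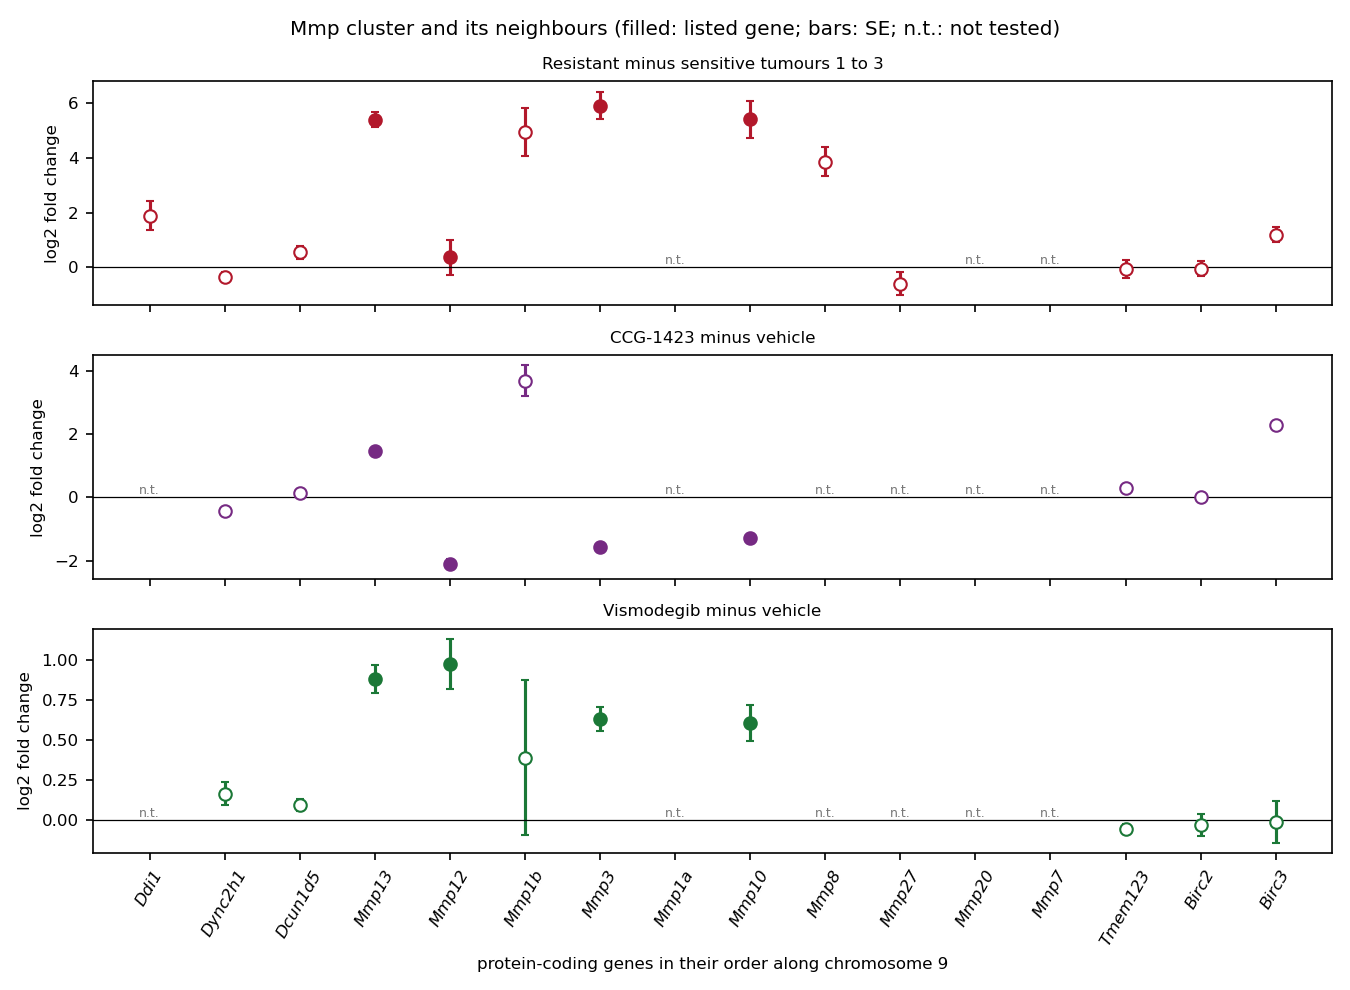
Log2 fold changes of the Mmp genes of chromosome 9 and their flanking genes, in their order on the chromosome, for resistant over sensitive tumours without sensitive tumour 4, CCG-1423 over vehicle and vismodegib over vehicle, each panel with its own scale. Under vismodegib 4 Mmp genes are at 0.61 to 0.98 while the flanking genes lie between -0.06 and 0.16, and under CCG-1423 neighbouring Mmp genes have opposite signs; the points of Mmp1b depend on the pseudocount.

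Genes that act on or with the metalloproteinases were read from lists chosen with earlier results known. With all 8 tumours no member of any of the 5 lists was called by limma or edgeR; unadjusted p under 0.05 was reached by 5 of 11 genes of activation and control, 4 of 18 ADAM and ADAMTS proteases, 4 of 12 AP-1 and ETS factors, 3 of 11 secreted inducers and 6 of 18 matrix substrates, beside 25.1% of all genes. DESeq2 called 1 secreted inducer and 1 matrix substrate, beside 10.8% of all genes. Without sensitive tumour 4, 7 of 11 genes of activation and control passed the limma test, 6 higher and 1 lower, beside 40% of all genes. Plaur, the urokinase receptor that focuses plasmin formation at the cell surface, rose by 3.07 ± 0.21 (limma adjusted p = 6.78e-05). The protease inhibitor gene Serpine2 rose by 3.27 ± 0.29 (limma adjusted p = 0.00018). Bsg, which encodes the MMP inducer basigin, rose by 1.07 ± 0.16 (limma adjusted p = 0.00145).

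The counts of the other lists without sensitive tumour 4 stand beside 40% of all genes called, and the shares of the AP-1 and ETS factors, the ADAM and ADAMTS proteases and the substrates were near it. Of 11 secreted inducers, 5 were called higher and 1 lower, with Il1b up by 4.0 ± 0.25 (limma adjusted p = 4.33e-05) and Il1a by 3.07 ± 0.38 (limma adjusted p = 0.000653). The called Il6 and Osm were near the limit of detection in sensitive tumours 1 to 3. Il6 averaged 81.5 ± 68.5 normalized counts in resistant tumours (SD, n = 4) and 1.96 ± 1.18 in sensitive tumours 1 to 3 (SD, n = 3), with a limma adjusted p = 0.000698. Osm averaged 20.9 ± 5.16 and 1.80 ± 2.19 in the same groups, with a limma adjusted p = 0.0034. Of 12 AP-1 and ETS factors, 4 were called, all higher: Fosl1 by 2.23 ± 0.39 (limma adjusted p = 0.00286), Ets1 by 1.43 ± 0.30, Fos by 1.69 ± 0.36 and Junb by 1.35 ± 0.35 (largest limma adjusted p of these, 0.0161). Among 18 ADAM and ADAMTS proteases, 7 were higher and 1 lower, led by Adam8 at 2.35 ± 0.21 (limma adjusted p = 0.0002). Of the 18 substrates, 7 were higher and none lower, with the fibronectin gene Fn1 at 2.89 ± 0.24 (limma adjusted p = 0.000143) and the basement membrane gene Col4a1 at 1.41 ± 0.20 (limma adjusted p = 0.00128). The list medians were 1.18 for activation and control, 1.0 for inducers, 0.88 for AP-1 and ETS factors, 0.60 for substrates and 0.55 for ADAM and ADAMTS genes, against 0.02 for all genes. The neutrophil marker sums were also higher, at 6319 to 9126 in resistant tumours against 657 to 1120 in sensitive tumours 1 to 3. Their part was not tested.

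Under CCG-1423, where 85.3% of all genes were called, the AP-1 and ETS list had 9 of 12 higher and 3 lower, with a median log2 fold change of 0.97. The ETS genes Etv4 and Etv5 rose by 4.71 ± 0.11 (limma adjusted p = 3.23e-15) and 5.60 ± 0.16 (limma adjusted p = 2.13e-14), Ets1 rose by 1.40 ± 0.05 (limma adjusted p = 1.24e-13), and Jund fell by 0.81 on the log2 scale (limma adjusted p = 6.93e-13). All 7 tested secreted inducers were called higher, with a median of 1.49, among them Tnf by 3.80 ± 0.26 (limma adjusted p = 1.3e-09) and Il1a by 3.51 ± 0.26 (limma adjusted p = 3.12e-09). Of 14 ADAM and ADAMTS genes, 11 were lower and 1 higher, with Adam15 at -1.25 ± 0.03 (limma adjusted p = 1.77e-14) and Adam9 at 1.03 ± 0.03 (limma adjusted p = 1.31e-13). Of 14 substrates, 9 were lower and 4 higher, with Tnc at -1.11 ± 0.03 (limma adjusted p = 7.03e-14) and the anchoring fibril collagen gene Col7a1 at -1.0 ± 0.04 (limma adjusted p = 5.6e-12). Of 9 genes of activation and control, 5 were higher and 3 lower, with Plaur at 4.29 ± 0.32 (limma adjusted p = 3.44e-09) and Serpine2 at -2.19 ± 0.07 (limma adjusted p = 4.96e-14).

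Under vismodegib few genes of these lists were called, beside 5.5% of all genes. None of the 12 AP-1 and ETS factors and none of the 7 secreted inducers was called by limma, edgeR or DESeq2, and an unadjusted p under 0.05 was reached by 4 of the factors and 1 of the inducers with limma, beside 18.5% of all genes. Serpine2 fell by 0.43 on the log2 scale (limma adjusted p = 0.000974), the only called gene of 9 in activation and control. Adamts5 fell by 0.31 on the log2 scale (limma adjusted p = 0.0174) and Adam15 rose by 0.12 ± 0.03 (limma adjusted p = 0.0479), of 14 tested. For CCG-1423 against vismodegib, 9 of 9 genes of activation and control, 14 of 14 ADAM and ADAMTS genes, 12 of 12 AP-1 and ETS factors, 7 of 7 inducers and 13 of 14 substrates were called, beside 84.8% of all genes.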

How the data were processed

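The authors deposited normalized read counts, a signal in which reads at a gene are divided by 1 size factor per library, in a tumour table and a cell table. Per the submitters' processing notes, TopHat, DESeq and mm9 were used. Versions, strand and annotation are in no source used here. Every deposited value was a whole number of reads after removal of the size factor (tolerance 0.01). Limma 3.58.1 in R 4.3.3 was fitted to log2(normalized count + 1) of each whole table, so fold changes of low genes are understated. Genes needed a normalized count of 10 in at least 4 tumours (3 when a tumour was left out) or 3 cell libraries (2 when a cell library was left out), and p-values were adjusted by Benjamini-Hochberg over all tested genes (threshold 0.05). edgeR 4.0.16 and DESeq2 1.42.0 on recovered reads were alternatives. The fits were tested on simulated data.

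The genes and lists were chosen with earlier results of these data known. All listed genes are named, with up to 6 other called Mmp and Timp genes and up to 4 called genes per list of smallest p, except that some genes of the lists are not reported here. Naming without sensitive tumour 4 was chosen after seeing the data. Nothing states that samples came from separate animals or cultures, so p-values reflect the variation among these libraries alone, and part of it may be technical. A planned search of protein sequences was not run.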

Additional observations from a re-analysis of the deposited data

Results flagged for a closer look

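Sensitive tumour 4 was far above the other 3 sensitive tumours for 9 of the 27 Mmp and Timp genes, by the gap to the nearest tumour relative to the range of the group. Among the listed genes, it had 6888 normalized counts of the stromelysin Mmp3, 1580.2 of its relative Mmp10, 12603 of the collagenase Mmp13, 1332 of the gelatinase Mmp9 and 1015 of the inhibitor Timp1. Among the other family members, it had 1000.4 normalized counts of the neutrophil collagenase Mmp8, 75.0 of Mmp25, 42.6 of Mmp1b and 10.1 of Mmp1a. The same tumour had the highest sum of neutrophil markers (16774) and no reads of Y-linked genes, unlike the other sensitive tumours, and the part of either in these values was not tested.

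Resistant tumour 4 was above the other resistant tumours for Mmp11, with 565 normalized counts. Sensitive tumour 3 had 1.66 normalized counts of Mmp20, which is 1 read, where the other sensitive tumours had none. Of 53 groups checked, 11 were flagged, and 9 of these flags were for sensitive tumour 4. The rule flags about 1 in 20 by chance only where values are normally distributed. Low counts need not be, and a single read was enough for the Mmp20 flag. The groups also reuse the same tumours, so the flags are not independent. The number of flags therefore cannot be compared with that rate.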

How the results depend on the processing

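For resistant against sensitive tumours, 17 genes of the whole table were called. A pseudocount of 0.5, scaling to total reads, edgeR and the replicate block each gave 0, and DESeq2 gave 1630. DESeq2 called 2 listed and 1 other Mmp or Timp gene where limma called 0. Leaving out 1 tumour gave 0 to 6184 genes of the whole table, 0 to 6 listed genes and 0 to 9 other family members, and in each case the higher number came only without sensitive tumour 4. The log2 fold change of Mmp12 (0.04) turned to -0.070 with total reads, -0.090 with edgeR and -0.083 with DESeq2, and ran from -0.51 (without sensitive tumour 3) to 0.36 when 1 tumour was left out, below 0 also without sensitive tumour 2 or resistant tumour 1. Mmp2 ran from -0.094 to 0.40 and Timp3 from -0.30 to 0.032, and both changed sign only without resistant tumour 2. Total reads moved the median log2 fold change of all genes in tumours to -0.08, against 0.03.

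For CCG-1423 against vehicle, Mmp2 ran from -0.014 (without CCG-1423 library 2) to 0.34 when 1 library was left out. For CCG-1423 against vismodegib, Mmp2 (-0.02) turned to 0.012 with edgeR and 0.016 with DESeq2, and ran from -0.15 to 0.21, above 0 without CCG-1423 library 3 or vismodegib library 1. With no filter on low values, Mmp9 was also tested and called higher in both comparisons, which made 9 of 10 listed genes called. No other listed gene changed its call or direction in either comparison under the alternatives run.

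For vismodegib against vehicle, 703 genes were called (202 higher and 501 lower), against 3229 with total reads (2923 higher and 306 lower) and 1721 with only the 2 groups compared. Leaving out 1 library gave 325 to 498, and the count moved by more than 1.5 times without vehicle library 1, 2 or 3 or vismodegib library 2 or 3. Other Mmp and Timp genes called numbered 2 with total reads and 1 with the 2 groups alone, against 0. Mmp3, Mmp10, Mmp12 and Mmp13 were called higher in every alternative run, and Timp3 was called lower with the 2 groups alone. Mmp11 ran from -0.0091 to 0.033 and Mmp14 from -0.0064 to 0.017 when 1 library was left out, both on either side of 0. The cause of these changes was not tested.

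Replicate numbers did not pair the samples: same-numbered samples correlated at -0.146 to 0.122 in tumours and -0.0427 to 0.0368 in cells, and not every sample correlated best with its own number. The fit with the replicate block called 606 genes for vismodegib, 10848 for CCG-1423 and 10788 for CCG-1423 against vismodegib. Depth limits Mmp9 in cells, Timp4 in resistant tumours, and Mmp7 and Mmp20.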
